A study of Homo sapiens with 120 samples.

Results

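The microRNAs described here are late entries of the human miRNA registry that were recovered with Argonaute from HEK293T, an established line of human embryonic kidney origin. They are the mature miRNAs from miR-3000 up to miR-8999 whose mean normalised count was at least 10 over the 6 Ago pulldown libraries of the parental line in experiment 1. They were chosen by that pulldown level, so their level in those 6 libraries, and every comparison that uses them, is given as a description without a test. The rule took 110 of the 2652 mature miRNA names in the tables, out of 1425 names in that number range at any level. Another 5 late-numbered names at that level were set aside because the rule leaves them out by number, and 458 of the 1425 had no read in any library used here.

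A miRNA hairpin is cut out of its primary transcript by Drosha, or released by splicing in the case of a mirtron, and is then cut by Dicer into a short duplex. One strand of that duplex is loaded into an Argonaute protein, where bases 2 to 8, the seed, pair with target mRNAs. Registry numbers were given roughly in order of discovery, so high numbers mostly mark hairpins found late by deep sequencing, and many of them are found only in primates and are expressed at low levels. TRBP and PACT are double-stranded RNA binding partners of Dicer, and PKR is a kinase that is activated by long double-stranded RNA.

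All lines, the parental line included, carry a PKR knock-out made before the other knock-outs. Experiment 1 compared this parental line with lines that additionally lack PACT, TRBP or both, and experiment 2 compared it with lines labelled as additionally lacking Ago2, Ago1/2 or Dicer. Each line was transfected with Lipofectamine 3000 as mock or with one of the long double-stranded RNAs dsGFPc and dsGFPd, in 2 replicates, and small RNA was sequenced from total RNA and from Ago Affinity Purification by Peptides, called pulldown here, which gave 6 libraries for each line and fraction. The question named in the series title is how mammalian cells recognise and process long double-stranded RNA. Whether a line is a single clone, and whether replicates came from separate cultures, is not given in the sources used here, so p-values measure the spread between libraries, which may be technical.

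The values are normalised counts, from which whole reads were recovered. Libraries of experiment 1 held 406531 to 1104630 miRNA reads in total RNA and 2457547 to 13457933 in pulldown, and those of experiment 2 outside the Dicer knockout held 910155 to 4340650 and 1856249 to 7167395. The Dicer knockout libraries were far smaller, with 39916 to 180343 reads in total RNA and 47006 to 593510 in pulldown, so that 1 read there was worth 4.86 to 32.5 normalised counts, against 0.06 to 2.01 elsewhere. All 9 miRNAs typical of HEK293T were present, and 12 of 16 miRNAs typical of liver, muscle, neuron, blood, epithelium or stroma stayed under 10, with 7 of them at 0 and the highest at 122 in experiment 1. Argonaute and Dicer mRNAs are not measured in these libraries, so the labels of the Ago lines could not be checked from them. The pulldown and total RNA libraries of the 2 Ago lines differ from the parental line in unlike ways, as described below, and "labelled" is used for them throughout.

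Mature sequences were found in RefSeq (GRCh38.p14) for 101 of the 110 miRNAs. The 12 most abundant in parental pulldown of experiment 1 are shown first, in falling order of level, because they hold 58.4% of the summed level of all 110. The seed is in capitals.
miR-4677-3p: uCUGUGAGaccaaagaacuacu
miR-7706: uGAAGCGCcugugcucugccgaga
miR-4467: uGGCGGCGguaguuaugggcuu
miR-3127-5p: aUCAGGGCuuguggaaugggaag
miR-3615: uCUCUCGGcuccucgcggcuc
miR-3691-5p: aGUGGAUGauggagacucgguac
miR-3928-3p: gGAGGAACcuuggagcuucggc
miR-3679-5p: uGAGGAUAuggcagggaagggga
miR-3909: uGUCCUCUagggccugcagucu
miR-6509-5p: aUUAGGUAguggcaguggaac
miR-3131: uCGAGGACugguggaagggccuu
miR-3158-3p: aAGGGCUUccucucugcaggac

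No 2 of these 12 share a seed. Most of their hairpins lie inside other genes of GRCh38.p14. MIR4677 is at chr1:243346176-243346255 on the plus strand within the span of SDCCAG8, and MIR7706 at chr15:85380596-85380662 on the plus strand. MIR4467 is at chr7:102471469-102471531 within LRWD1, MIR3127 at chr2:96798278-96798353 within CNNM4, and MIR3679 at chr2:134127125-134127192 within MGAT5, all on the plus strand. MIR3909 is at chr22:35335640-35335758 on the plus strand within TOM1. MIR6509 is at chr7:135206994-135207078 on the minus strand within WDR91. MIR3131 is at chr2:219058688-219058750 on the minus strand within IHH. MIR3691 is at chr6:5148233-5148322 on the minus strand within LYRM4.

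A second set is shown because these miRNAs, or the other strand of the same hairpin, carry differences between lines described below. The seed is again in capitals.
miR-3180: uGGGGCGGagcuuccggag
miR-3180-3p: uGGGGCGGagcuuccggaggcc
miR-3173-5p: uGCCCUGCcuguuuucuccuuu
miR-3173-3p: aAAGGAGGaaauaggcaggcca
miR-3144-5p: aGGGGACCaaagagauauauag
miR-3144-3p: aUAUACCUguucggucucuuua
miR-3074-5p: gUUCCUGCugaacugagccag
miR-6741-5p: gUGGGUGCuggugggagccgug
miR-6741-3p: uCGGCUCUcucccucacccuag
miR-6740-5p: aGUUUGGGauggagagaggaga
miR-6514-5p: uAUGGAGUggacuuucagcuggc
miR-6858-5p: gUGAGGAGgggcuggcagggac

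miR-3180 and miR-3180-3p start with the same bases and share the seed GGGGCGG. Their values differed in 1 of 96 libraries, by 2 reads, so they are 1 signal counted under 2 names, and each is counted wherever members are counted. miR-3074-5p comes from chr9:95086014-95086094 on the minus strand, a hairpin that overlaps the older MIR24-1. miR-3065-5p and miR-3065-3p come from chr17:81125877-81125955 on the plus strand, which overlaps the older MIR338. miR-3158-3p is listed for 2 hairpins on opposite strands at chr10:101601417-101601497. Whether the authors' counting used strand is not given in the sources used here, so reads of such pairs may not be told apart. MIR3173 is at chr14:95137919-95137986 on the minus strand, within the span of DICER1, the gene knocked out in the Dicer knockout line. Both of its strands had reads in that line.

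As sequences, the late-numbered miRNAs were rich in G. Their median GC content was 59.1% and their median G content 39.1%, against 50% and 27.3% for the 282 of 314 older miRNAs, numbered below 3000 or let-7, that had the same minimum level and a RefSeq match. A run of GGGG was present in 30 of 101 late-numbered sequences, or 29.7%, and in 7.8% of the older ones. The base at position 1 was U in 54.5% of the late-numbered and 43.6% of the older miRNAs. Of 85 matched hairpins, 70 lay within the span of a protein-coding gene, which is 82.4% against 59.5% of the older hairpins.

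The registry numbers fell into blocks with different make-up. The names from miR-3000 up to, not including, miR-4000 gave 43 of the 110, and those from miR-4000 up to miR-5000 gave 27. The block from miR-6720 to miR-6895, numbers mostly given to hairpins from a survey of mirtrons, gave 25. In that block 19 of 25 were 5p strands, 11 of 21 matched sequences had GGGG, and 17 of 18 matched hairpins lay inside a protein-coding gene. Across all matched members there were 96 distinct seeds, so that nearly every miRNA stood for its own seed. The 5 pairs of members with a common seed were miR-3176 and miR-3922-3p, miR-4749-5p and miR-4706, miR-3180 and miR-3180-3p, miR-4769-5p and miR-4654, and miR-4689 and miR-6858-5p. A single seed was shared with an older miRNA at the same level, that of miR-4665-5p with miR-1275. The last pairs of members are shown to let the common seed, in capitals, be seen beside unlike 3′ parts.
miR-4689: uUGAGGAGacauggugggggcc
miR-6858-5p: gUGAGGAGgggcuggcagggac
miR-4769-5p: gGUGGGAUggagagaagguaugag
miR-4654: uGUGGGAUcuggaggcaucugg

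Levels were low and unevenly spread. In parental pulldown of experiment 1 the 110 miRNAs summed to 6254 of 877700 normalised counts, or 0.713% of all miRNA signal. Their median level was 21.8, against 111 for the older miRNAs at the same minimum, and 46 of 110 were under 20. Only 10 reached 100, and the 5 most abundant held 43.2% of the summed level. Just inside the minimum were miR-4748 at 10.3, miR-6741-5p at 10.3 and miR-5001-5p at 10.1. Just outside it were miR-6797-3p at 9.63, miR-6515-5p at 9.59 and miR-4725-3p at 9.56.

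The 2 most abundant miRNAs differed in how they were divided between fractions. miR-4677-3p ran from 655 through a median of 744 to 1168 in parental pulldown of experiment 1 and from 672 through 928 to 1006 in total RNA, and the ranges overlapped. miR-7706 ran from 449 through 631 to 1353 in pulldown and from 245 through 300 to 534 in total RNA. In experiment 2, whose libraries the rule did not use, miR-4677-3p was at 630 ± 233 (SD, n = 6) in pulldown and 630 ± 162 in total RNA, and its log2 difference of -0.05 did not pass the test (limma, adjusted p = 0.916). miR-7706 was at 516 ± 200 and 334 ± 122.5, a log2 difference of 0.61 that did not pass either (limma, adjusted p = 0.162). miR-3615, miR-3691-5p, miR-3909 and miR-3158-3p among the 12 also did not pass, with log2 differences between -0.31 and 0.88.

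The other 6 of the 12 rose in pulldown against total RNA in experiment 2. miR-6509-5p ran from 39.0 through 77.2 to 155 in pulldown and from 2.00 through 7.45 to 14.9 in total RNA, a log2 change of 3.38 ± 0.46 (SE). miR-3679-5p ran from 112 through 157 to 194 in pulldown and from 17.5 through 30.0 to 46.3 in total RNA, a log2 change of 2.38 ± 0.31. In both cases every pulldown library was above every total RNA library. miR-3127-5p (2.06), miR-3131 (1.93), miR-3928-3p (1.50) and miR-4467 (1.08) made up the rest, as log2 changes.

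**Figure D1:**
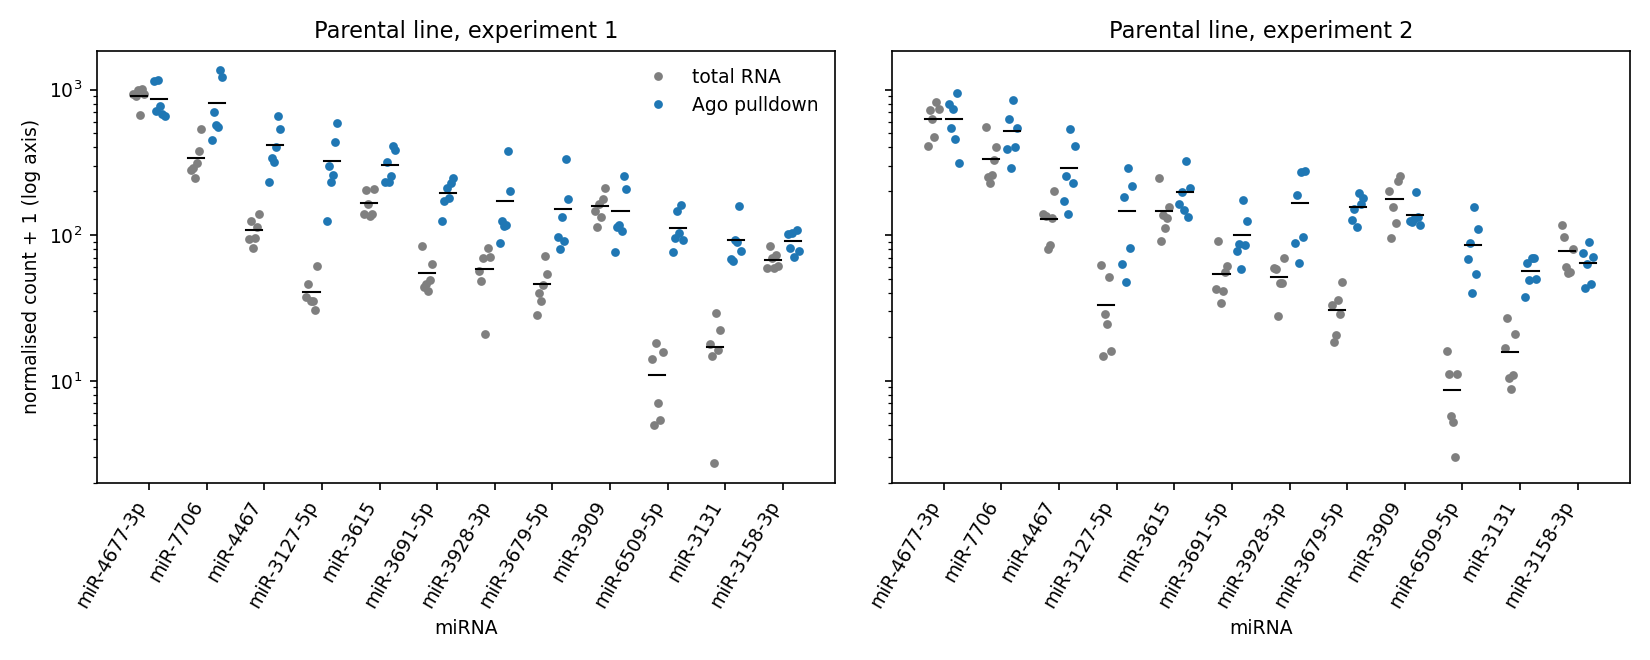
Normalised count plus 1 on a log axis of the 12 most abundant late-numbered miRNAs in the parental line, for total RNA (gray) and Ago pulldown (blue) in experiment 1 (left) and experiment 2 (right); each point is a library and each bar the mean of 6. The points of miR-4677-3p overlap between fractions, while all pulldown points of miR-6509-5p lie above all total RNA points in both experiments.

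Across all 110, pulldown exceeded total RNA in most cases. In the parental line of experiment 1, as a description, 101 of 110 were higher in pulldown, with a median log2 difference of 1.60, against 166 of 314 older miRNAs with a median of 0.12. In the parental line of experiment 2, 50 of 110 rose and 0 fell in pulldown against total RNA (limma, adjusted p under 0.05, with 65 at an unadjusted p under 0.05), where of all 645 miRNAs tested 21.9% rose and 7.91% fell. The median log2 change was 1.39 for the 110 and 0.31 for all tested. Because pulldown libraries were deeper, and the members were selected on a pulldown level, 76 of the 110 passed the filter on low counts only through pulldown. Of the 34 that passed on total RNA alone, 11 rose and 0 fell, with a median of 0.79. The shares of all 645 are over a wider set. None is given for all miRNAs that passed on total RNA alone, so this count has no background beside it. For the differences between lines described below, fewer cells that hold a miRNA and less of it per cell cannot be told apart in bulk RNA.

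The size of this difference moved with the scaling of the libraries. With every library scaled to the same sum, the median over all tested was 0.08 and that of the members 1.16, with 41 rising and 0 falling. Under quantile normalization these medians were -0.09 and 0.97, with 37 rising and 1 falling. Without the parental dsGFPd pulldown replicate 2, 33 members were called.

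Among the largest differences in experiment 2 were miRNAs that had no read in at least 1 parental total RNA library and passed the filter on low counts only through pulldown, so they are given as a description. miR-5189-5p had 728 reads in pulldown and 0 of 15859812 in total RNA, which makes it at least 134-fold higher in pulldown against a floor of 3 reads over the group, a bound that covers counting error only. miR-4787-5p was at 18.9 ± 12.1 in pulldown and 0.568 ± 1.39 in total RNA. miR-3605-3p was at 65.5 ± 51.2 and 3.98 ± 2.99, a log2 difference of 3.58. miR-6832-5p (3.35) and miR-3940-5p (3.34) followed by log2 difference.

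The same difference was tested in the 3 knockout lines of experiment 1, whose libraries did not enter the choice of members. There 92 of 110 rose and 3 fell in pulldown (limma, adjusted p under 0.05), where of all 863 tested 45.3% rose and 23.3% fell. The median log2 change was 1.59 for the 110 and 0.41 for all. Members were chosen on parental pulldown of the same experiment, and 63 of the 110 did not pass the filter on total RNA alone. Of the 92 rises, 58 were among these 63, so the counts over all 110 are given as a description. Of the 47 that passed the filter on total RNA alone, 34 rose and 3 fell, with a median of 1.10. Here too no share is given for all miRNAs that passed in that way. The 3 that fell were miR-7705 (-1.09), miR-3144-3p (-0.74) and miR-6720-3p (-0.55).

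By strand, the counts are given for the members that passed the filter on total RNA alone. In the 3 knockout lines 12 of 15 such 5p miRNAs rose and 0 fell, 10 of 13 3p miRNAs rose and 2 fell, and of 19 named without a strand 12 rose and 1 fell. In the parental line of experiment 2, 5 of 11, 3 of 11 and 3 of 12 rose, in the same order, and 0 fell. In the block from miR-6720 to miR-6895 only 4 of 25 passed on total RNA alone in the knockout lines, of which 3 rose and 1 fell, and 1 of 25 in the parental line of experiment 2, which rose. The difference between strands was not tested, and these counts have no share over all miRNAs beside them.

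**Figure D2:**
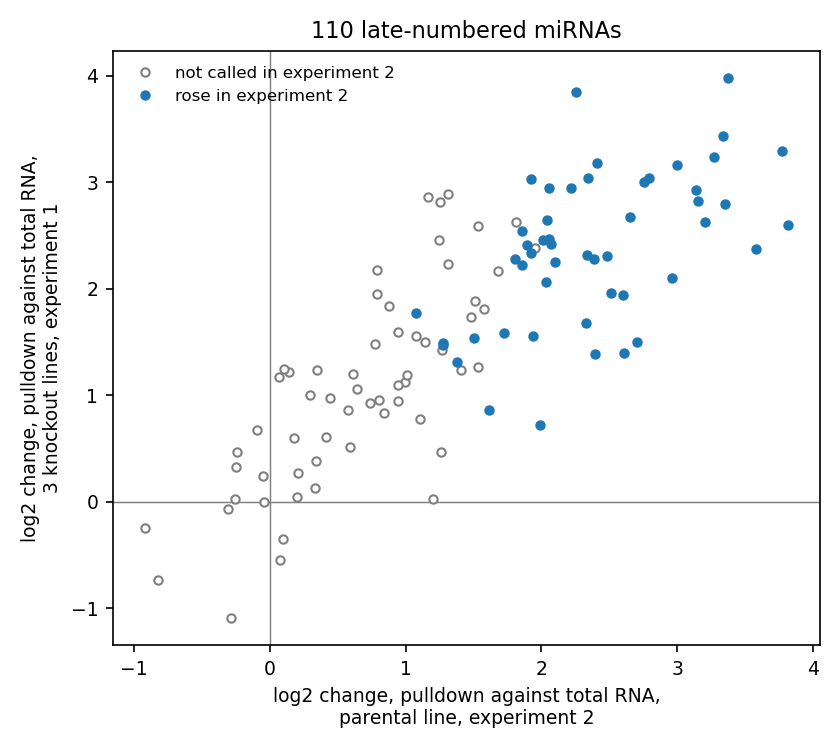
Log2 change of pulldown against total RNA for each of the 110 miRNAs, in the parental line of experiment 2 (horizontal) and in the 3 knockout lines of experiment 1 (vertical); filled points passed the test in experiment 2. The 50 filled points all lie right of 0 and above 0, and the miRNAs that fell in the knockout lines are the open points lowest in the plot.

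Both strands of the same hairpin were members for 7 hairpins, miR-3065, miR-3144, miR-3173, miR-3605, miR-4749, miR-4787 and miR-6741, which allows the strands to be set side by side within a library. For miR-6741 the 5p strand was above the 3p strand in 0 of the 48 libraries of experiment 1, with 3p at 80.3 ± 38.0 and 5p at 10.3 ± 3.16 in parental pulldown and 18.6 ± 6.90 against 3.24 ± 4.69 in parental total RNA. For miR-4787 in experiment 1 the 3p strand was higher in 6 of 6 parental total RNA libraries, at 14.2 ± 6.58 against 1.23 ± 1.91. In pulldown its strands were closer, at 25.2 ± 7.15 (3p) and 14.3 ± 6.37 (5p).

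In experiment 1, miR-3144 was divided between fractions by strand. In parental total RNA of experiment 1 its 3p strand was at 17.6 ± 6.56 and its 5p strand at 3.57 ± 4.58, with 3p higher in 6 of 6 libraries. In pulldown they were at 15.4 ± 9.75 and 16.5 ± 8.54, with 5p higher in 5 of 6 libraries. The 5p strand rests on 14 reads in that total RNA group, so its level there is imprecise. miR-3065 had similar levels of both strands in parental total RNA (25.5 ± 10.0 for 3p and 25.6 ± 7.24 for 5p). In parental pulldown miR-3605 had 3p at 83.3 ± 50.6 and 5p at 50.7 ± 20.7, with 5p higher in 1 of 6 libraries. miR-4749 had 3p at 11.1 ± 9.70 and 5p at 18.4 ± 12.5, with 5p higher in 6 of 6.

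As a share of all miRNA reads, the 110 gave 0.638% of parental pulldown in experiment 1 as the median of 6 libraries, and 0.769%, 0.833% and 0.753% in the PACT, TRBP and double knockouts. These medians pool mock with long double-stranded RNA. In mock pulldown alone the shares were 0.959% and 0.845% in the parental line, and 0.903% and 0.796% in the PACT knockout. They were 0.931% and 0.860% in the TRBP knockout, and 0.774% and 0.756% in the double knockout. With long double-stranded RNA, parental pulldown was at 0.5651% to 0.6385%. These differences in share were not tested. In total RNA the medians of these 4 lines were 0.361%, 0.356%, 0.365% and 0.38%. In experiment 2 the pulldown medians were 0.656% in the parental line, 0.641% in the line labelled Ago1/2 and 0.312% in the line labelled Ago2. By its median, the share was higher in pulldown than in total RNA in 6 of the 7 line groups that have Dicer. In the Dicer knockout the share was 0.504% and 0.473% in the mock total RNA libraries, above the 0.241% and 0.402% of mock pulldown, and 0.0996% to 0.134% in total RNA with long double-stranded RNA, below the 0.179% to 0.231% of pulldown. The line labelled Ago2 had a pulldown share of 0.296% to 0.398%, below its total RNA share of 0.435% to 0.512% in every library.

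**Figure D3:**
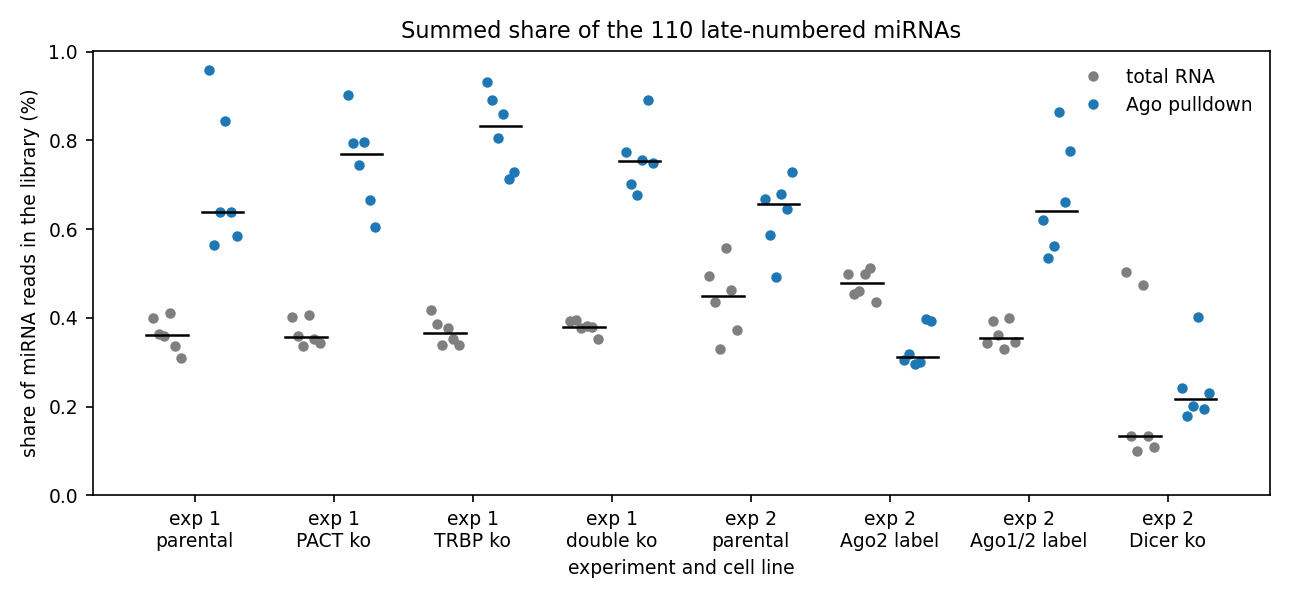
Share of all miRNA reads, in percent, that the 110 miRNAs took in each library, by experiment and line, in total RNA (gray) and Ago pulldown (blue); points are libraries and bars medians of 6. Pulldown sits above total RNA in all 4 lines of experiment 1, and below it in the line labelled Ago2.

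Loss of TRBP, PACT or both was tested first in total RNA of experiment 1, which did not enter the choice of members. Only 51 of the 110 were abundant enough there to be tested, and 59 were not. With PACT lost, 0 of 51 rose and 0 fell (limma, adjusted p under 0.05), with 7 at an unadjusted p under 0.05 and 0 calls by edgeR or DESeq2. Over all 422 miRNAs tested, 0.474% rose and 0.948% fell.

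With TRBP lost, 2 of 51 rose and 5 fell, where of all 422 tested 9.48% rose and 10.9% fell. miR-7706 rose from 339 ± 105 in the parental line to 554 ± 94.4 in the TRBP knockout (SD, n = 6), a log2 change of 0.74 ± 0.10 (limma, adjusted p = 1.44e-06). Its libraries ran from 447 through 536 to 678 in the knockout and from 245 through 300 to 534 in the parental line, so the groups overlapped. Its call held in all 24 fits that left out a library. miR-3174 rose by 0.97 on the log2 scale, and its call was lost in 6 of those 24 fits.

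The TRBP knockout also had less of 5 names. The level of miR-3144-3p was 17.6 ± 6.56 in the parental line and 7.80 ± 5.78 in the TRBP knockout (log2 -1.42 ± 0.46, SE), and its call was lost in 4 of the 24 fits. miR-3938 (-1.33), miR-3679-5p (-0.64) and miR-3180 with miR-3180-3p (-1.17 each, 1 signal) were the others, as log2 changes. All 7 called members overlapped between the groups, while 32 of the 86 called among all tested, or 37.2%, did not. Without the low-count filter there was 1 call, and without the parental dsGFPd replicate 2 or the TRBP knockout dsGFPc replicate 2 there were 4 calls.

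In the double knockout 2 of 51 rose and 1 fell in total RNA, where of all 422 tested 5.45% rose and 8.53% fell. miR-3159 rose from 18.4 ± 11.97 to 40.3 ± 10.7, a log2 change of 1.29 ± 0.37 (limma, adjusted p = 0.0182). miR-4428 rose by 1.51 and miR-4661-5p had a log2 change of -1.79, and both calls were lost in several fits that left out a library (7 and 5 of 24). All 3 overlapped between the groups, while 24 of the 59 called among all tested, or 40.7%, did not. Leaving out the parental mock replicate 1, or either mock replicate of the double knockout, left 1 call, and quantile normalization gave 2 rising and 2 falling.

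In pulldown of experiment 1 the knockout lines were compared with each other, since the parental pulldown chose the members. Between the double knockout and the TRBP knockout, which differ by PACT, 4 of 110 were higher and 12 lower in the double knockout (limma, adjusted p under 0.05), where of all 840 tested 4.52% were higher and 7.14% lower. The groups did not overlap for 6 of these 16 names, or 37.5%, against 49 of the 98 called among all tested, or 50%. miR-3180 ran from 8.53 through 13.4 to 17.97 in the TRBP knockout and from 35.6 through 39.6 to 48.1 in the double knockout, a log2 change of 1.55 ± 0.24 (adjusted p = 3.53e-05). As a description, the parental pulldown had 25.4 ± 11.8 and the PACT knockout 29.0 ± 4.25, so that the TRBP knockout was the lowest and the double knockout the highest of the 4 lines.

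The abundant miR-7706 had the opposite order. It was at 1240.5 ± 274 in the TRBP knockout and 721 ± 187 in the double knockout, a log2 change of -0.79 ± 0.14 (limma, adjusted p = 0.000226), with the PACT knockout at 770 ± 242. The TRBP knockout thus had the highest level of miR-7706 in both fractions of experiment 1. miR-3127-5p ran from 326 through 399 to 514 in the TRBP knockout and from 117 through 220 to 325 in the double knockout. miR-5187-5p was at 71.1 ± 12.5 and 32.2 ± 8.13. Neither pair of groups overlapped. miR-6721-5p and miR-3605-3p were also lower without overlap. miR-3144-3p was higher in the double knockout, at 14.3 ± 4.396 against 3.40 ± 2.54, a log2 change of 2.03 ± 0.43.

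Between the double and the PACT knockout, which differ by TRBP, 2 of 110 were higher in pulldown and 2 lower, where of all 840 tested 0.833% were higher and 1.31% lower. miR-4428 ran from 65.5 through 70.2 to 80.6 in the PACT knockout and from 90.4 through 110 to 172 in the double knockout (limma, adjusted p = 0.0357). miR-3159 ran from 27.2 through 32.7 to 37.7 and from 44.8 through 67.6 to 87.7 (adjusted p = 0.0359). Neither pair overlapped, and miR-4661-5p and miR-6721-5p were lower in the double knockout with overlap. Of all 18 called in this comparison 8 did not overlap, or 44.4%. These calls were not stable: the count went to between 0 and 2 when any library of the PACT knockout, either mock library of the double knockout, or its dsGFPc or dsGFPd replicate 1 was left out, and to 0 without the low-count filter. With libraries scaled to the same sum 2 were higher and 1 lower.

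In experiment 2 the line labelled Ago2 was compared with the parental line. In total RNA 2 of 89 tested members rose and 1 fell (limma, adjusted p under 0.05), where of all 632 tested 13.4% rose and 5.85% fell. miR-6509-5p ran from 2.00 through 7.45 to 14.9 in the parental line and from 21.9 through 32.3 to 58.0 in the line labelled Ago2, without overlap, a log2 change of 2.21 ± 0.44 (adjusted p = 0.000481). miR-3615 rose by 0.86 and miR-7706 had a log2 change of -0.73, both with overlap, and these calls were lost in 2 and 4 of 18 fits that left out a library. Of all 122 called there 64 did not overlap, or 52.5%. Scaling to the same sum gave 2 rising and 0 falling, and quantile normalization 1 rising and 2 falling, with medians over all tested of 0.20 and -0.09 in place of 0.06.

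In pulldown of the line labelled Ago2, 8 of 110 rose and 31 fell, where of all 750 tested 15.3% rose and 20.5% fell. The median log2 change of the 110 was -1.10, against -0.39 for all tested. The groups did not overlap for 15 of the 39, or 38.5%, against 134 of the 269 called among all tested, or 49.8%. With every library scaled to the same sum these medians were -1.59 and -0.82, with 5 rising and 55 falling. Under quantile normalization they were -0.90 and -0.14, with 7 rising and 34 falling, so the members had the lower median under each scaling. The members were chosen for their level in pulldown of the parental line, though in experiment 1. That choice can favour lower values in a line set against it, so the counts and the lower median are given as a description. At least 10 reads in every library were found for 101 members in parental pulldown, 31 in the line labelled Ago2 and 71 in the line labelled Ago1/2. These counts also depend on depth. Parental pulldown libraries held 4637573 to 6804535 reads, those labelled Ago2 1856249 to 7167395 and those labelled Ago1/2 2452747 to 5362336.

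The 8 names that rose there included miR-3180 with miR-3180-3p, miR-3158-3p and miR-6509-5p. miR-3180 ran from 13.4 through 22.4 to 37.2 in parental pulldown and from 55.2 through 90.9 to 179 in the line labelled Ago2, a log2 change of 2.05 ± 0.41 (limma, adjusted p = 0.000406). miR-3158-3p ran from 42.2 through 66.1 to 88.2 and from 128 through 184 to 578, a log2 change of 1.99 ± 0.43. Both were without overlap, as were miR-3176 (81.8 ± 32.6 and 166 ± 25.6) and miR-4646-5p (9.51 ± 5.87 and 47.2 ± 36.2). miR-6509-5p rose from 85.3 ± 42.3 to 336 ± 178, and miR-3173-3p from 12.3 ± 7.61 to 64.9 ± 31.1. The call of miR-3173-3p, and those of miR-3176 and miR-6851-5p, were lost with libraries scaled to the same sum.

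Among those that fell, the strongest had almost no reads left and are given as a description. miR-4654 and miR-3934-5p, without a read there, passed the filter on low counts only through the other lines. miR-4654 had 0 of 23394988 reads in the line labelled Ago2 and was at least 57.4-fold lower than in parental pulldown, at 8.98 ± 5.33, without overlap. miR-3934-5p, also without a read, was at least 53.8-fold lower by pooled reads. It ran from 0 through 8.66 to 20.5 in parental pulldown, so its groups overlapped. miR-6741-3p, the dominant strand of its hairpin, ran from 23.4 through 35.6 to 72.8 in parental pulldown and from 0 through 0.223 to 19.8, without overlap. Its log2 change was -4.13 ± 0.72. miR-3174 ran from 20.9 through 29.9 to 40.5 and from 0 through 1.86 to 10.1, also without overlap. miR-7706 fell from 516 ± 200 to 152 ± 44.6 and miR-3679-5p from 154 ± 31.3 to 29.4 ± 13.6, both without overlap. In the block from miR-6720 to miR-6895, 9 of 25 fell and 1 rose. From miR-3000 to miR-3999, 11 of 43 fell and 5 rose, and from miR-4000 to miR-4999, 5 of 27 fell and 1 rose. From miR-5000 to miR-5999, 3 of 8 fell and 0 rose, and from miR-6000 to miR-6719, 2 of 3 fell and 1 rose. From miR-6896 to miR-8999, 1 of 4 fell and 0 rose. The difference between blocks was not tested.

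In the line labelled Ago1/2 more members were called in total RNA than in pulldown. In its pulldown 1 of 110 rose and 0 fell (limma, adjusted p under 0.05), where of all 750 tested 4.8% rose and 2.27% fell. That was miR-6509-5p, which ran from 39.0 through 77.2 to 155 in the parental line and from 212 through 341 to 1070, a log2 change of 2.42 ± 0.46 (adjusted p = 0.000964). The groups did not overlap, as for 42 of the 53 called among all tested, or 79.2%, and its call held in all 18 fits that left out a library. With the replicate number as a block 2 members were called, the added one being miR-3615, and 2 were also called without the parental dsGFPd replicate 2.

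In total RNA of the line labelled Ago1/2, 9 of 89 tested members rose and 11 fell, where of all 632 tested 25.8% rose and 19.8% fell. The median log2 change was -0.48 for the members and 0.04 for all tested. Under quantile normalization 6 rose and 22 fell, with medians of -0.65 and -0.16. The groups did not overlap for 9 of the 20, or 45%, against 154 of the 288 called among all tested, or 53.5%. miR-3180 ran from 5.21 through 8.69 to 14.8 in parental total RNA and from 29.8 through 33.6 to 50.3, a log2 change of 1.97 ± 0.37 (limma, adjusted p = 0.000109). miR-7706 ran from 226 through 292 to 548 and from 80.0 through 92.5 to 177, a log2 change of -1.53 ± 0.23 (adjusted p = 4.54e-06). miR-3074-5p ran from 13.5 through 19.9 to 31.7 and from 0 through 3.21 to 8.06. These 3 did not overlap, nor did miR-3158-3p (76.8 ± 25.3 and 177 ± 34.7), miR-3928-3p (50.7 ± 14.5 and 97.2 ± 16.5), miR-3679-5p (29.7 ± 10.7 and 6.23 ± 4.02), miR-3173-3p (2.73 ± 2.77 and 25.3 ± 10.9) and miR-5001-5p (5.78 ± 2.58 and 21.9 ± 9.68).

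Total RNA of the line labelled Ago1/2 and pulldown of the line labelled Ago2, each against parental libraries of its own fraction, share no library. Of 89 members tested in both, 8 rose in the pulldown and 9 in the total RNA comparison, and 6 rose in both, which is 75.0% of the first list and 66.7% of the second. They were miR-3158-3p, miR-3173-3p, miR-3176, miR-3180 with miR-3180-3p, and miR-6509-5p. Of 25 and 11 that fell, 6 fell in both, 24% and 54.5% of the lists: miR-3074-5p, miR-3144-3p, miR-3615, miR-3679-5p, miR-4786-5p and miR-7706. The pulldown call of miR-4786-5p was lost in 13 of 18 fits that left out a library. Of the 584 miRNAs tested in both in all, 97 rose in both, 85.8% of the 113 in the pulldown list and 64.7% of the 150 in the total RNA list, and 82 fell in both, 63.6% of 129 and 66.7% of 123. None of the members rose in one and fell in the other, and 0 of all 584 did. Whether the fractions or the lines are labelled as prepared was not tested.

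**Figure D4:**
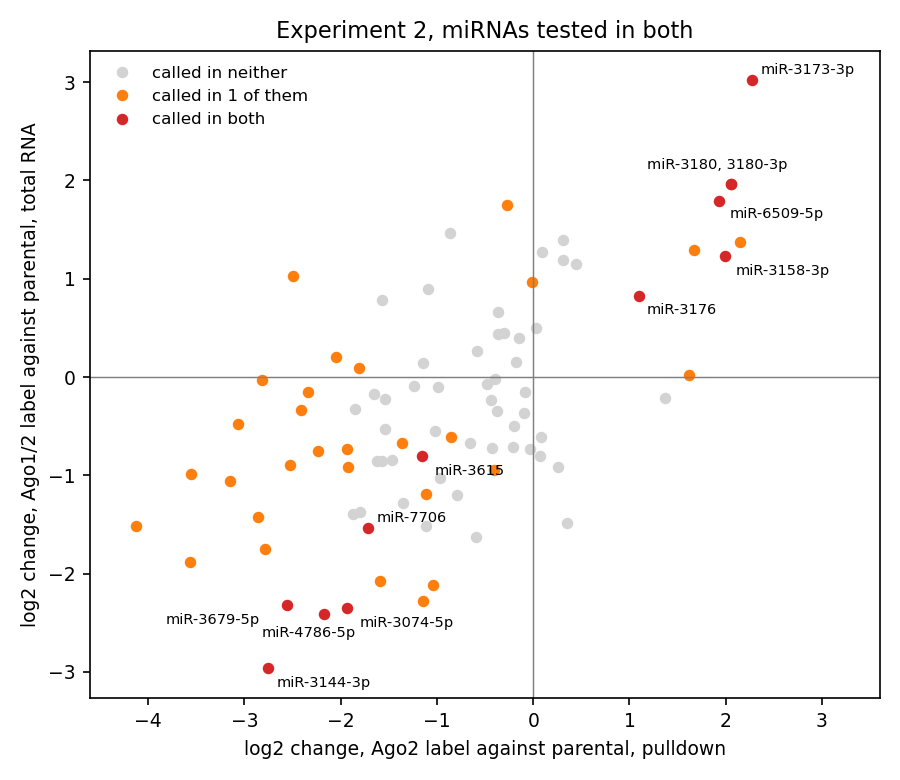
Log2 change against the parental line in pulldown of the line labelled Ago2 (horizontal) and in total RNA of the line labelled Ago1/2 (vertical), experiment 2, for the 89 late-numbered miRNAs tested in both; red points passed the test in both comparisons. The 6 red names at upper right (miR-3180 and miR-3180-3p at 1 place) rose in both and the 6 at lower left fell in both.

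miR-3173, the hairpin within DICER1, changed its strand balance in the same 2 sets. In parental pulldown of experiment 2 the 5p strand was at 14.7 ± 11.4 and the 3p strand at 12.3 ± 7.61, with 5p higher in 4 of 6 libraries. In pulldown of the line labelled Ago2 they were at 10.7 ± 10.8 and 64.9 ± 31.1, with 5p higher in 0 of 6. In total RNA 5p was higher in 5 of 6 parental libraries (8.19 ± 7.26 against 2.73 ± 2.77) and in 0 of 6 of the line labelled Ago1/2 (7.64 ± 4.36 against 25.3 ± 10.9). In pulldown of the line labelled Ago1/2 the strands were at 15.8 ± 15.6 and 11.4 ± 7.54, close to the parental values. miR-3144 went the other way in pulldown. In parental pulldown of experiment 2 its 3p strand ran from 3.46 through a median of 7.46 to 54.3 (20.25 ± 22.19). The 5p strand was at 9.95 ± 6.97 there. In the line labelled Ago2 the 3p strand was at 1.65 ± 2.23 beside a 5p strand of 9.04 ± 6.81.

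In the Dicer knockout more of these miRNAs fell than rose in pulldown, under each scaling tried, and its small libraries left most of them with few reads. In Dicer knockout pulldown 18 of 110 had no read and 74 had under 10 reads over 6 libraries, and in total RNA 34 had no read and 74 under 10. Of the 110, 7 had no read in either fraction. The share of the members was 0.216% of Dicer knockout pulldown reads, as a median. In pulldown 3 of 110 rose and 18 fell (edgeR, quasi-likelihood, adjusted p under 0.05), where of all 762 tested 16.3% rose and 13.3% fell. The median log2 change was -1.86 for the members and -1.33 for all tested. As for the line labelled Ago2, the choice of members on parental pulldown can favour falls and a lower median, so the counts and the median are given as a description.

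Several abundant members fell in pulldown. miR-3127-5p ran from 46.9 through 130 to 288 in parental pulldown and from 0 through 8.02 to 27.4 in the Dicer knockout (edgeR, adjusted p = 0.000865). miR-3615 fell from 196 ± 69.6 to 47.4 ± 40.2 and miR-3909 from 136 ± 30.4 to 40.9 ± 31.6, and neither these nor miR-3127-5p overlapped. miR-4677-3p fell from 630 ± 233 to 246 ± 167, with overlap. miR-6832-5p had 0 of 1657747 reads and was at least 5.59-fold lower, and miR-4741 and miR-4787-3p, also without a read, at least 4.94-fold and 3.98-fold lower. In all, 11 of the 21 called in pulldown did not overlap, or 52.4%, against 88 of the 225 called among all tested, or 39.1%. In this knockout pulldown 1 read was worth 4.86 to 24.5, so lack of overlap with libraries without a read is weak evidence. For miR-4787-3p, for example, the lowest parental value was 10.0, within that range.

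In total RNA of the Dicer knockout 9 of 91 tested members rose and 8 fell (edgeR, adjusted p under 0.05), where of all 644 tested 27.5% rose and 13.4% fell, and 19 members were not tested. miR-7706 ran from 226 through 292 to 548 in the parental line and from 10.9 through 83.9 to 191 in the knockout, and miR-3127-5p had 0 of 784474 reads, at least 4.82-fold lower. miR-3158-3p rose, from 54.3 through 69.6 to 116 in the parental line to between 160 and 1595 with a median of 259 (edgeR, adjusted p = 0.000131). These and miR-4511 were the 4 of 17 without overlap, or 23.5%, against 98 of the 263 called among all tested, or 37.3%. For miR-4511 the lack of overlap is weak. Its lowest parental value was 0.324, while 1 read in these knockout libraries was worth 10.6 to 32.5. It had 0 reads in the knockout and was at least 2.07-fold lower. Other rises came from few libraries. miR-8072 and miR-5009-5p rested on the Dicer knockout mock replicate 1, and the change of miR-5009-5p was -0.27 on the log2 scale without it. miR-3173-3p, whose hairpin lies within DICER1, had 21 reads in these 6 libraries and a highest value of 618 beside a median of 5.46, and its call was lost without the same mock replicate 1.

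The balance of rising and falling members depended on the scaling. With libraries scaled to the same sum, 2 rose and 25 fell in total RNA and 2 rose and 63 fell in pulldown, and the medians over all tested were -1.44 and -2.80. Under quantile normalization 4 rose and 25 fell in total RNA and 2 rose and 36 fell in pulldown. The rises of miR-3158-3p in total RNA, and of miR-6514-5p in both fractions, were lost under both scalings. The pulldown rises of miR-6740-5p and miR-6858-5p held under both.

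miR-6740-5p, miR-6858-5p and miR-6514-5p were far above the parental level in Dicer knockout pulldown. miR-6740-5p was at 10.0 ± 8.01 in parental pulldown and 1584 ± 1862 in the Dicer knockout (edgeR, log2 change 6.78, adjusted p = 0.00132). miR-6858-5p was at 17.1 ± 10.7 and 673 ± 435 (5.21, edgeR, adjusted p = 6.69e-05). miR-6514-5p was at 16.7 ± 8.35 and 391 ± 356 (3.87, edgeR, adjusted p = 0.0247), and its call was lost in 4 of 24 fits that left out a library. Their hairpins lie at chr1:202003124-202003236 on the plus strand within RNPEP, at chrX:154450320-154450386 on the plus strand within FAM50A, and at chr11:62792702-62792771 on the minus strand within NXF1, in that order.

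In Dicer knockout pulldown miR-6740-5p and miR-6514-5p had reads only after transfection with long double-stranded RNA. miR-6740-5p had 0 of 130327 reads in the 2 mock libraries and 1019 of 1527420 in the 4 libraries with long double-stranded RNA, or 667 RPM, the usual depth-scaled read count, at least 29.0-fold higher against a floor of 3 reads. miR-6514-5p had 0 reads in mock and 284 with long double-stranded RNA, or 186 RPM, at least 8.08-fold higher. miR-6858-5p had 37 and 451 reads, 284 and 295 RPM, a ratio of 1.04. In parental pulldown miR-6740-5p was at 18.1 RPM in mock and 9.85 with long double-stranded RNA. The mock libraries of the Dicer knockout held 47006 to 83321 reads and the others 161963 to 593510, so depth and transfection cannot be told apart here. The difference in this response between lines was not tested.

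By a wider rule, at least 10 reads in the Dicer knockout and a pulldown level above the parental one, 23 members stood out. The other 20 had 10 to 104 pulldown reads, 16 of them were seen in at most 3 of 6 libraries, and in 18 a single library held most of the reads. They were miR-3144-5p, miR-3158-3p, miR-3173-3p, miR-3173-5p, miR-3613-3p, miR-3661, miR-3691-5p, miR-3934-5p, miR-4654, miR-4713-5p, miR-4787-5p, miR-5010-5p, miR-6763-5p, miR-6797-5p, miR-6803-3p, miR-6805-5p, miR-6825-5p, miR-6890-5p, miR-6894-5p and miR-8072. Of these 20, none passed the test in pulldown.

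**Figure D5:**
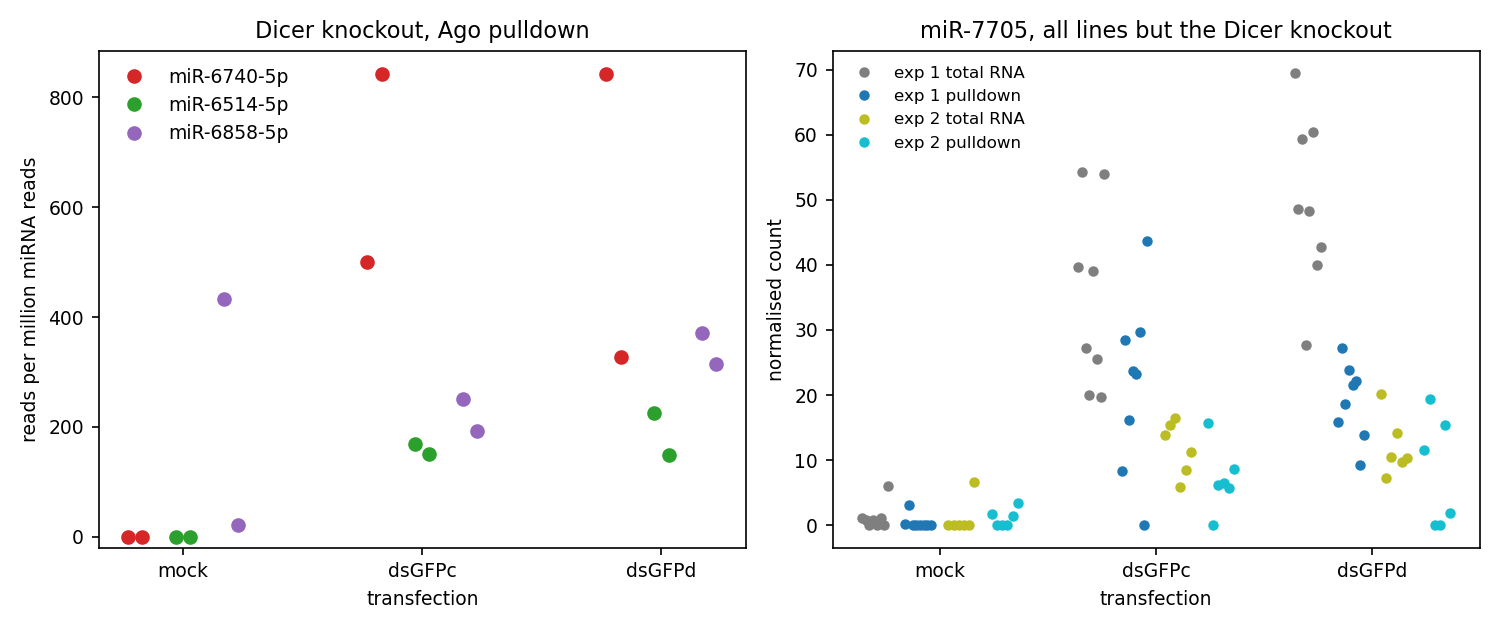
Left, RPM of miR-6740-5p, miR-6514-5p and miR-6858-5p in Dicer knockout pulldown by transfection, 2 libraries each. Right, normalised count of miR-7705 by transfection in all lines but the Dicer knockout, with 8 libraries per point cloud in experiment 1 and 6 in experiment 2. miR-6740-5p and miR-6514-5p have no read in mock, and the median of miR-7705 is lower in mock than with either long double-stranded RNA in all 4 sets of libraries.

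Long double-stranded RNA was compared with mock over the lines other than the Dicer knockout. In pulldown of the 3 knockout lines of experiment 1, 1 of 110 rose and 1 fell (limma, adjusted p under 0.05), where of all 840 tested 2.38% rose and 0.595% fell. In pulldown of experiment 2, 0 of 110 rose and 0 fell, with 3 at an unadjusted p under 0.05 and 0 calls by edgeR or DESeq2, where of all 750 tested 0.4% rose and 0% fell. The comparison in total RNA was added after the values were seen. There 1 of 51 rose and 3 fell in experiment 1, where of all 422 tested 11.8% rose and 7.58% fell. In experiment 2, 1 of 89 rose and 1 fell, where of all 632 tested 2.69% rose and 0.791% fell. Quantile normalization gave 2 rising and 1 falling in pulldown of experiment 1.

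The miRNA that rose in each of these 3 comparisons was miR-7705. It passed the filter on low counts there only through the libraries with long double-stranded RNA, so its differences are given as a description. Its membership also rests on such libraries. In parental pulldown of experiment 1 it had 0 reads in the 2 mock libraries. There it was at 23.3 to 29.7 with dsGFPc and at 21.6 to 22.1 with dsGFPd. In total RNA of experiment 1 it ran from 0 through 0.795 to 6.06 in mock, from 19.7 through 33.1 to 54.3 with dsGFPc and from 27.7 through 48.5 to 69.4 with dsGFPd (n = 8 each), and mock overlapped with neither. Its log2 change there was 4.52. In total RNA of experiment 2 it ran from 0 to 6.59 in mock, where 5 of 6 libraries had no read, from 5.8 to 16.4 with dsGFPc and from 7.23 to 20.1 with dsGFPd, and mock overlapped with dsGFPc. Its log2 change was 3.14, and its call was lost under edgeR with TMM. In pulldown of experiment 1 it ran from 0 to 3.14 in mock. With dsGFPc and dsGFPd it ran from 0 to 43.8 and from 9.23 to 27.2. The log2 change in the knockout lines was 3.57. It was also lower in pulldown than in total RNA, as given above. In Dicer knockout pulldown it had no read in any of 6 libraries, and in Dicer knockout total RNA its 11 reads were all in the 2 dsGFPc libraries, at 31.9 and 87.3, with 0 reads in the mock and dsGFPd libraries. RefSeq gave no sequence for it here.

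Smaller falls with long double-stranded RNA concerned abundant members. miR-7706 had log2 changes of -0.52 in total RNA (limma, adjusted p = 1.19e-05) and -0.63 in pulldown of the knockout lines (adjusted p = 0.00447) in experiment 1. miR-3909 had -0.42 in experiment 1 and -0.88 in experiment 2 (adjusted p = 0.0136), both in total RNA. The latter call was lost when either mock replicate of the line labelled Ago1/2 was left out. miR-3679-5p had -0.63 in total RNA of experiment 1 (adjusted p = 0.00286).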

How the data were processed

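Small RNA libraries (Lexogen kit) from total RNA and Ago pulldown were aligned with STAR to GRCh38, per the submitters' processing notes; versions, counting and strand use are not given in the sources used here. The deposited tables hold normalised counts, a signal scaled by the authors; whole reads were recovered from them for 100% of values (tolerance 0.01). Of 2883 rows, 231 repeated a mature name from another locus and were set aside, keeping for each of 2652 names the row with the most reads. Experiments 1 and 2 (48 libraries each) were used. Experiment 3 (24 libraries) was not analysed here, because its table is the same as that of experiment 2.

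Changes were tested in R 4.3.3 with limma 3.58.1 (trend, robust) on log2(value + 1), which understates changes of low miRNAs, over miRNAs with at least 10 reads in at least 6 libraries of the fit, with Benjamini-Hochberg adjustment over all tested and a threshold of 0.05. Dicer knockout comparisons departed from this plan: limma gave false calls on simulated data there, so edgeR 4.0.16 (quasi-likelihood, the authors' scaling as library size) on recovered reads was used. Alternatives were other pseudocounts, no filter, other scalings, edgeR with TMM, DESeq2 1.42.0, summed repeated loci, a replicate block and each library left out. Replicate numbers paired the samples in pulldown of experiment 2 without the Dicer knockout. There all 36 pairs of groups had same-numbered deviations correlated over 0.1 (lowest 0.11, median 0.30). The tests given above for that pulldown did not use the pairing, and the replicate block was run as an alternative. With the Dicer knockout added, 40 of 66 pairs were over 0.1 (median 0.16), and the test with that knockout did not use the pairing either. In the remaining fits the numbers were not taken to pair the samples. Of 48 replicate pairs, 0 held identical values.

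Named were the 12 most abundant members, up to 6 called each way per comparison by size, the edges of the level, hairpins with both strands, and members above parental in the Dicer knockout; further called members were named after their values were seen. The members and lists were chosen with earlier results of these data known.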

Additional observations from a re-analysis of the deposited data

Results flagged for a closer look

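In 192 groups of 6 libraries (the 12 most abundant members by line and fraction), 18 had a highest or lowest library far from the others; chance gives about 1 in 20 groups. Among pulldown libraries of experiment 1, miR-4467 was at 571.0 in the PACT knockout dsGFPc replicate 1 (the others 345.8 to 415.1), miR-3131 at 158.4 in the parental mock replicate 1 (the others 65.81 to 92.34) and miR-3909 at 283.6 in the TRBP knockout mock replicate 2 (the others 153.4 to 196.4). In total RNA of experiment 1, miR-4677-3p was at 672.3 in the parental dsGFPd replicate 2 (the others 909 to 1006). In the TRBP knockout total RNA, miR-4467 was at 167.6 and miR-6509-5p at 17.96 in mock replicate 1, and miR-3679-5p at 12.27 in dsGFPc replicate 2. In experiment 2, miR-3691-5p was at 156.9 in total RNA of the line labelled Ago1/2, dsGFPc replicate 2 (the others 13.49 to 59.62), and miR-3909 at 197.4 in the parental pulldown dsGFPd replicate 2 (the others 115.7 to 131.5).

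The other 9 were Dicer knockout libraries, where 1 read is worth 4.86 to 32.5 normalised counts. In pulldown, miR-7706 was at 974.2 and miR-3158-3p at 311.7 in mock replicate 2, and miR-3691-5p at 710.2 in dsGFPc replicate 2. In total RNA, mock replicate 1 had miR-4467 at 488.1 and miR-3158-3p at 1595, and mock replicate 2 had miR-3615 at 330.8. The dsGFPd replicate 2 of total RNA had miR-3691-5p at 309.7, miR-6509-5p at 536.9 and miR-3131 at 433.6.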

How the results depend on the processing

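Of 509 recomputed counts of called members, 43 moved by over 1.5 times, and 180 of 284 named calls held in every alternative (218 in every fit that left out a library). Pulldown against total RNA in the parental line of experiment 2 gave 25 with edgeR and TMM, and 33 to 52 with a library left out. In total RNA of experiment 1 the TRBP knockout gave 1 without the filter, 4 with DESeq2 and 4 to 7 with a library left out, and the double knockout 1 without the filter, 1 with edgeR and 1 to 4. In pulldown the double against the PACT knockout gave 0 without the filter and 0 to 4 with a library left out. Long double-stranded RNA gave 5 with DESeq2 in pulldown of experiment 1, and 1 with edgeR in total RNA of experiment 2 (1 to 2 with a library left out). The line labelled Ago2 gave 60 in pulldown with libraries scaled to the same sum, and the line labelled Ago1/2 gave 3 with DESeq2 and 1 to 2 with a library left out. With the replicate number as a block, pulldown of experiment 1 gave 4 calls for long double-stranded RNA. With that block the line labelled Ago1/2 gave 2 in pulldown. In pulldown of experiment 2 without the Dicer knockout the block ended no named call, and the line labelled Ago2 gave 48. For the Dicer knockout in total RNA the count was 46 and 28 with a pseudocount of 0.1 and 10 (limma), 43 with 1, 29 with quantile normalization and 27 with the same sum. In its pulldown it was 81, 54 and 70 with these pseudocounts, 38 and 65 with these scalings, 33 with TMM and 13 without the filter. With a pseudocount of 0.1, 4 rises in Dicer knockout total RNA changed direction: miR-6514-5p to -0.23, miR-5009-5p to -0.22, miR-6805-5p to -1.31 and miR-6509-5p to -0.079 on the log2 scale. Leaving out a library moved miR-5009-5p between -0.27 (without the Dicer knockout mock replicate 1) and 5.02. Rows without a read are set far below 1 read there by a small pseudocount, and the cause of the other differences was not tested. Depth limits the Dicer knockout most, and 59 members could not be tested in total RNA of experiment 1.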
